A study of Mus musculus with 4 samples.

Results

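SOX proteins are transcription factors that bind DNA through an HMG box, a domain they share with the sex-determining factor SRY, and they are sorted into lettered subgroups by how alike that box is. Several of them mark or control cell types of the skin. SOX2 is known from the dermal papilla, the knot of mesenchyme under a hair follicle that signals to the overlying hair matrix, and from Merkel cells. SOX18 acts in the papilla and in blood and lymphatic endothelium, SOX9 in the outer root sheath and its stem cells, SOX21 in the hair shaft, and SOX10 in melanocytes and Schwann cells.

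The genes described here were Sox2, Sox21, Sox4, Sox11, Sox12, Sox5, Sox6, Sox13, Sox9 and Sox18, listed by subgroup. A probe set was counted for a gene where the platform annotation named that gene and no other. By this rule each of the 10 genes had 1 probe set, and they were 10 of 19938 named genes in the data. The other 10 SOX genes with such a probe set, among them Sry, served as a comparison within the family.

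Gene expression was measured on Affymetrix microarrays, chips whose probes capture labelled copies of RNA. The cells were dermal papilla cells of mouse skin at postnatal day 5, sorted for green fluorescence from a Sox2 reporter together with integrin alpha 9 on the surface. The tested animals carried a conditional knockout of Sox2 (cKO, 2 arrays) and the controls were heterozygous for Sox2 (Het, 2 arrays). Both groups therefore carried the reporter. The controls were not wild type. The sources used here do not give the Cre driver, the allele structure, the sex or the number of animals behind each array. The comparison asks how loss of Sox2 alters the papilla's expression profile. Within it, the SOX genes show the targeted gene beside its relatives. The labels call the arrays biological replicates but do not say whether they came from separate animals, so the spread behind each p-value may be technical. A lower value in sorted cells can come from fewer cells of a type or from less RNA per cell, and the arrays cannot tell these apart.

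Each probe set had been set to a median of 0 over the 4 arrays before deposit, so the values were log2 differences between arrays and held no expression level. Whether a SOX gene was detected, and which of them was the most abundant, could not be read, and the papilla label could not be checked against the level of its markers. A difference near 0 may belong to a silent gene or to an expressed gene that did not differ. When the groups do not overlap, the inner array of each group stands at the same distance from 0 by construction. Over all genes, limma's moderated test called 0 of 19938 at an adjusted p of 0.05 (0% called), and 1053 genes (5.28%) had an unadjusted p under 0.05. The unmoderated statistic of the same model also called 0. The groups did not overlap in 33.5% of genes. With 2 arrays against 2 an exact two-sided permutation test of a single gene cannot go below p = 0.333. Precision is limited by having 4 arrays.

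The DNA just before the start of the targeted gene is shown because the cells were sorted by a Sox2 reporter. Sox21 and Sox4, whose groups overlapped, are shown beside it. Whether the letters relate to the differences between the groups was not tested. The sequences are the 250 bases before the outermost annotated start, from RefSeq on GRCm38.p6, read in the direction of the gene. RefSeq entries were found for 8 of the 10 genes, all but Sox9 and Sox18, and 5 of the entries begin at the outermost start of the gene. Capitals mark matches, on either strand, to the SOX cores ACAAAG and ACAATG, to the octamer letters ATGCAAA, to CCAAT and to TATAAA. The windows were chr3:34649745-34649994 on the plus strand for Sox2, chr14:118237031-118237280 on the minus strand for Sox21 and chr13:28953700-28953949 on the minus strand for Sox4.
Sox2: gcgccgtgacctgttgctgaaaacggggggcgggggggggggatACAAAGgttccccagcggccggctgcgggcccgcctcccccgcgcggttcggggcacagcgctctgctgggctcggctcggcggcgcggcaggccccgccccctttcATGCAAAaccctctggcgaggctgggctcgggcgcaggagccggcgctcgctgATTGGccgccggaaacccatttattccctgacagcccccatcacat
Sox21: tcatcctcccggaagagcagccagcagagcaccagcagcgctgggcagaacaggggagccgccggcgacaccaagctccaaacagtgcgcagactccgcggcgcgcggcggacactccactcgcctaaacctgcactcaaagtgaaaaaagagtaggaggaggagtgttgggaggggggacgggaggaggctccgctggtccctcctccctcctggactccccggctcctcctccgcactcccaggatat
Sox4: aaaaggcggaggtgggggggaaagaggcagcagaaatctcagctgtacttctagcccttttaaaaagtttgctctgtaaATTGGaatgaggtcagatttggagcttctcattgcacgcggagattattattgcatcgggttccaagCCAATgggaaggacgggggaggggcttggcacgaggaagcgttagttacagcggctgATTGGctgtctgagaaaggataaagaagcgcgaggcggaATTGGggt

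The Sox2 window held a SOX core, ACAAAG, whose first base lay 206 bases before the start. It also held the octamer letters, recognised by POU factors, at 99 bases and a CCAAT box on the opposite strand at 46 bases. Either SOX core occurs in 25.2% of the 32851 windows of this length in the table, the octamer letters in 4.12%, CCAAT in 33.8% and TATAAA in 12.4%. No searched letters were found in the Sox21 window, and the Sox4 window held 4 CCAAT matches. The Sox11 and Sox12 windows, not shown, each held a CCAAT match. Sox12 also held the octamer letters, at 195 bases. Of the 5 genes whose window begins at the outermost start, Sox2 was the 1 with a SOX core. A match is a description of these letters and not a bound site.

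Sox2, the targeted gene and the member of the B1 subgroup studied here, was lower in both cKO arrays. Its values were -0.87 and -0.94 in cKO replicates 1 and 2, against 0.96 and 0.87 in Het replicates 1 and 2. The cKO arrays lay 0.073 apart and the Het arrays 0.091 apart, whereas the closest pair across the groups lay 1.73 apart. The difference, cKO minus Het, was -1.81 ± 0.06 (SE of the limma fit, n = 2 arrays per group), a 3.51-fold lower value, with a 95% confidence interval from -1.98 to -1.65. Group means were -0.90 ± 0.05 in cKO and 0.91 ± 0.06 in Het (SD, n = 2 each). Xist, Sostdc1, Fam210b and Eif2s3y were the 4 genes with a larger absolute difference, and the unadjusted p of Sox2, 1.73e-05, was the smallest of all genes. After adjustment over all genes it did not pass (adjusted p = 0.345, limma). Whether the probe set lies inside the deleted stretch of Sox2 was not examined, and a probe outside that stretch would not check the labels.

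**Figure D1:**
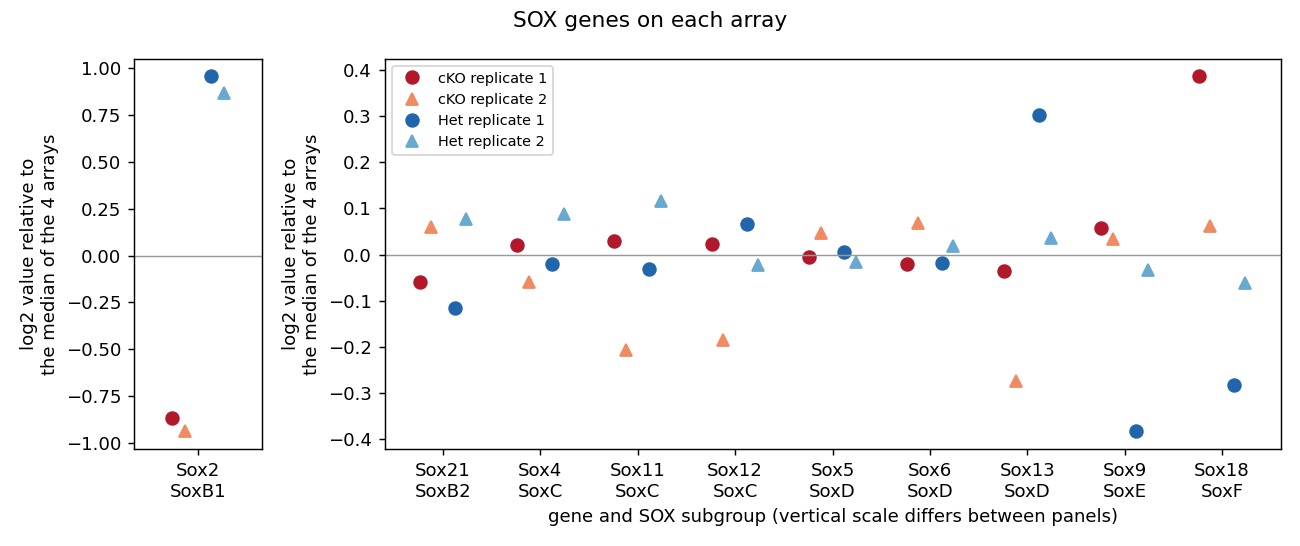
Value of each of the 10 SOX genes on each array, as log2 relative to the median of the 4 arrays, with cKO arrays in red and orange and Het arrays in blue; circles are replicate 1 and triangles replicate 2. Sox2, in the left panel with its own scale, stood at -0.87 and -0.94 in cKO against 0.96 and 0.87 in Het, while the other 9 genes lay between -0.38 and 0.39.

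The genes whose 4 values lay nearest to those of Sox2 were found by Euclidean distance over the arrays, which favours genes with a difference of like size. They were Eif2s3y at a distance of 0.28, Fam210b at 0.38, Map1b at 0.41, Slc26a7 at 0.53 and Egr2 at 0.65, all in log2 units. Eif2s3y, a translation factor gene on the Y chromosome, had -0.87 and -0.79 in cKO against 1.18 and 0.79 in Het, a difference of -1.81 ± 0.16. Xist, the X-inactivation RNA of female cells, was named after its values were seen, since it had the largest difference of all genes. It stood at 0.85 and 1.23 in cKO and at -4.08 and -0.85 in Het. The groups did not overlap in either of these sex-linked genes. They overlapped in the Y-linked Sry, but whether Sry was detected could not be read from centred values. The sex of the animals is not given, and its part in these values was not tested. Fam210b, a mitochondrial protein gene, differed by -1.99 ± 0.22, and Map1b, a gene of the neuronal cytoskeleton, by -1.53 ± 0.12. None of these genes passed after adjustment over all genes (adjusted p between 0.885 and 0.937, limma).

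Sox21, of the B2 subgroup, is close to Sox2 in its HMG box and acts as a repressor. It stood at -0.060 and 0.060 in cKO and at -0.12 and 0.077 in Het. The Het arrays enclosed both cKO arrays, and the difference was 0.020 ± 0.092, with an interval from -0.25 to 0.29. That interval stayed short of the size of the Sox2 difference in either direction. Whether Sox21 was detected could not be read, so the interval sets no bound on a change in its RNA. The other genes of subgroup B were Sox1, at -0.000032 ± 0.059, Sox14, at 0.073 ± 0.074, and the X-linked Sox3, at -0.14 ± 0.05. Sox3 was lower in both cKO arrays (-0.041 and -0.060 in cKO, 0.041 and 0.13 in Het), by 1.10-fold.

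The C subgroup, Sox4, Sox11 and Sox12, encodes activators known from progenitor cells of the nervous system and mesenchyme. Sox4 had 0.020 and -0.059 in cKO against -0.020 and 0.089 in Het. Sox11 had 0.030 and -0.21 in cKO against -0.030 and 0.12 in Het. Sox12 had 0.023 and -0.19 in cKO against 0.065 and -0.023 in Het. In all 3 genes cKO replicate 2 was the lowest array and cKO replicate 1 lay between the Het arrays, so the groups overlapped. The differences were -0.054 ± 0.061 for Sox4, -0.13 ± 0.11 for Sox11 and -0.10 ± 0.09 for Sox12, with intervals that included 0. Without cKO replicate 2 they shrank to -0.014, -0.012 and 0.0025, the last with its sign turned.

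The D subgroup, Sox5, Sox6 and Sox13, lacks a transactivation domain, and SOX5 and SOX6 are best known as partners of SOX9 in cartilage. Sox5 and Sox6 varied least of the 10 genes. Sox5 had -0.0048 and 0.046 in cKO against 0.0048 and -0.016 in Het, a difference of 0.027 ± 0.040. Sox6 had -0.021 and 0.068 in cKO against -0.018 and 0.018 in Het, a difference of 0.024 ± 0.050. The SD over all 4 arrays was 0.027 for Sox5 and 0.041 for Sox6, below the median of 0.064 over all genes. Sox13 departed from these relatives. It stood at -0.036 and -0.27 in cKO and at 0.30 and 0.036 in Het, so both cKO arrays were lower, though the inner arrays of the groups lay only 0.072 apart. The Sox13 difference was -0.32 ± 0.14, a 1.25-fold lower value, with an interval from -0.73 to 0.083 (adjusted p = 0.951 over all genes, limma). It moved to -0.19 without Het replicate 1 and to -0.21 without cKO replicate 2.

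Sox9, of the E subgroup, maintains outer root sheath and hair follicle stem cells. It had 0.057 and 0.033 in cKO against -0.38 and -0.033 in Het. Both cKO arrays were higher, but Het replicate 1 alone stood far below the rest. The difference was 0.25 ± 0.14 (adjusted p = 0.971 over all genes, limma), with an interval from -0.15 to 0.66. Without Het replicate 1 it was 0.079. Sox10, the neural crest member of the subgroup, differed by -0.11 ± 0.11 and Sox8 by 0.033 ± 0.056, both with overlapping groups.

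Sox18, of the F subgroup, is known in the papilla and in endothelium, and in mice its mutation causes the sparse coat of the ragged strains. It had 0.39 and 0.062 in cKO against -0.28 and -0.062 in Het. Both cKO arrays were higher, with 0.12 between the inner arrays of the groups. The cKO arrays lay 0.32 apart and the Het arrays 0.22 apart. The difference, 0.40 ± 0.15 or 1.32-fold higher, was the second largest of the 10 genes in size and had an interval from -0.048 to 0.84 (adjusted p = 0.943 over all genes, limma). It was 0.23 without cKO replicate 1. Of all genes, 2.45% had a larger absolute difference than Sox18. Its subgroup relatives Sox7 and Sox17, which act with SOX18 in endothelium, differed by 0.044 ± 0.041 and 0.016 ± 0.040. Sox7 was higher in both cKO arrays, though the inner arrays of the groups lay only 0.014 apart, and Sox17 had overlapping groups.

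**Figure D2:**
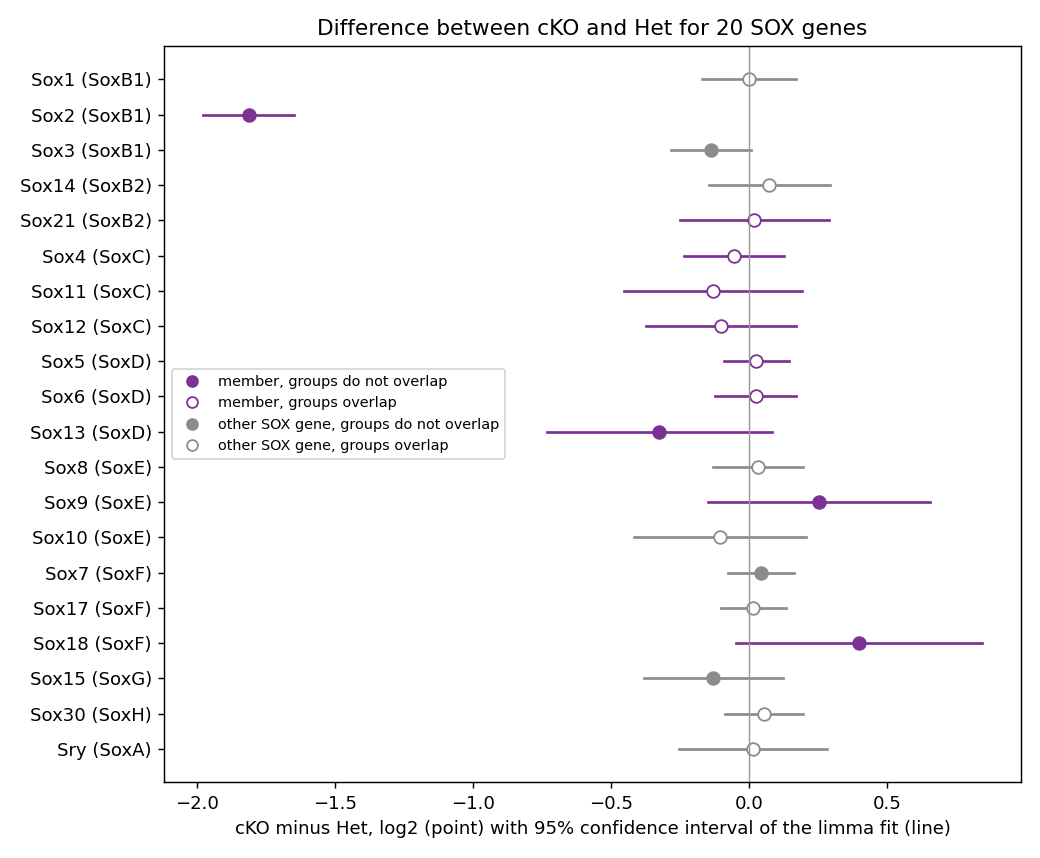
Difference between cKO and Het (log2, positive where cKO is higher) for 20 SOX genes by subgroup; points are estimates, lines 95% confidence intervals of the limma fit, filled points genes whose groups do not overlap. Sox2 at -1.81 stands alone on the left, and the intervals of the 19 other genes include 0.

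Counted together, 5 of the 10 genes were higher and 5 lower in cKO, beside 52.3% higher and 47.7% lower among all genes. The groups did not overlap in 4 of the 10, with Sox9 and Sox18 higher and Sox2 and Sox13 lower, beside 33.5% of all genes. Among all genes 17.8% did not overlap and were higher, and 15.6% did not overlap and were lower. The count for the SOX genes is thus near the background. No gene of the 10 passed limma's test after adjustment, beside 0% of all genes. Of the 10, 1 gene, Sox2, had an unadjusted p under 0.05, beside 5.28% of all genes. An absolute difference of at least 0.3 was found in 3 of the 10, Sox2, Sox18 and Sox13, beside 5.1% of all genes. In these 3 the groups also did not overlap, beside 3.95% of all genes that met both conditions. The median difference of the 10 genes was -0.017, and 0.020 over the 9 genes without Sox2, beside 0.0034 over all genes. The median of the 10 was -0.067 without Het replicate 1 and 0.0082 without Het replicate 2, so neither its sign nor its size was stable. The median absolute difference was 0.12 for the 10 genes and 0.047 over all genes. The 10 genes include the targeted one and were chosen with earlier results of these data known. Their larger differences, also beside the other SOX genes, may in part reflect that choice. The 10 SOX genes outside the list had a median difference of 0.016 and non-overlapping groups in 3 of 10, Sox3, Sox7 and Sox15, and none of them reached an absolute difference of 0.3. That median was 0.0097 and -0.0072 without cKO replicates 1 and 2, and -0.025 and 0.049 without Het replicates 1 and 2. Sox15, the G subgroup gene, differed by -0.13 ± 0.09 and Sox30, of subgroup H, by 0.054 ± 0.049. The inner arrays of the groups lay 0.082 apart in Sox3, 0.014 in Sox7 and only 0.0018 in Sox15. Sry, on the Y chromosome, differed by 0.016 ± 0.092 with overlapping groups.

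**Figure D3:**
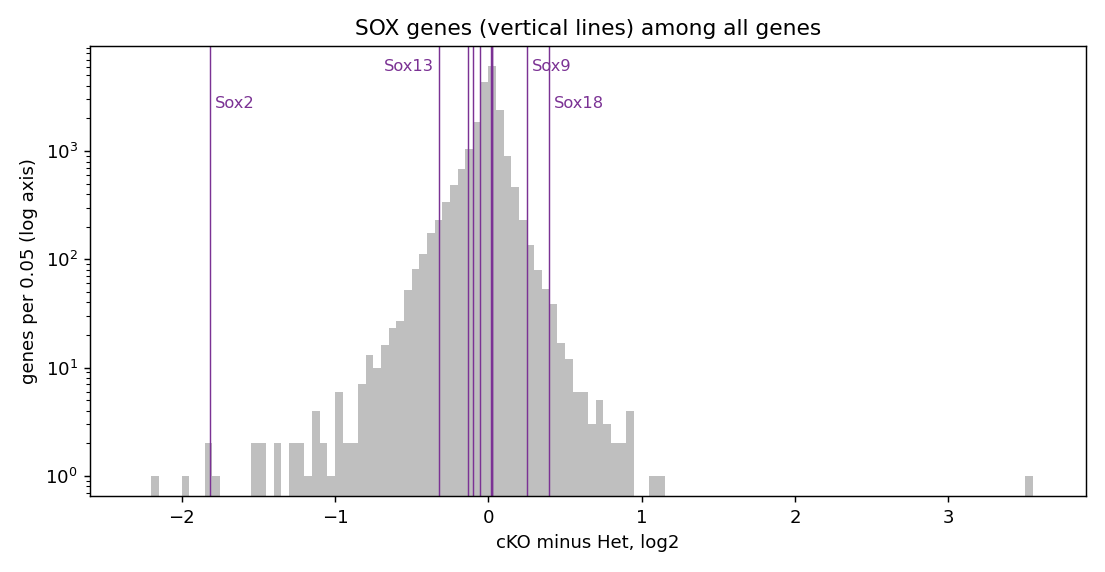
Histogram of the difference between cKO and Het (log2) over 19938 genes on a log count axis, with a vertical line for each of the 10 SOX genes. Sox2 lies in the sparse left tail at -1.81, and Sox13, Sox9 and Sox18 lie at -0.32, 0.25 and 0.40 on the flanks of the main peak.

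The arrays themselves were compared over the 9 genes without Sox2. The SD of the differences between arrays was 0.29 for cKO replicate 1 with Het replicate 1 and 0.31 for cKO replicate 2 with Het replicate 1. It was 0.18 and 0.17 for cKO replicates 1 and 2 with Het replicate 2, close to 0.16 between the cKO arrays and 0.18 between the Het arrays. Over all genes this SD was 0.18 and 0.24 for cKO replicates 1 and 2 with Het replicate 1. With Het replicate 2 it was 0.17 and 0.18, beside 0.20 between the cKO arrays and 0.17 between the Het arrays. In Sox9, Sox13 and Sox18, Het replicate 1 was the Het array farthest from the cKO arrays. Of the 10 genes, cKO replicate 2 was the lowest array in 5, beside 25.7% of all genes.

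**Figure D4:**
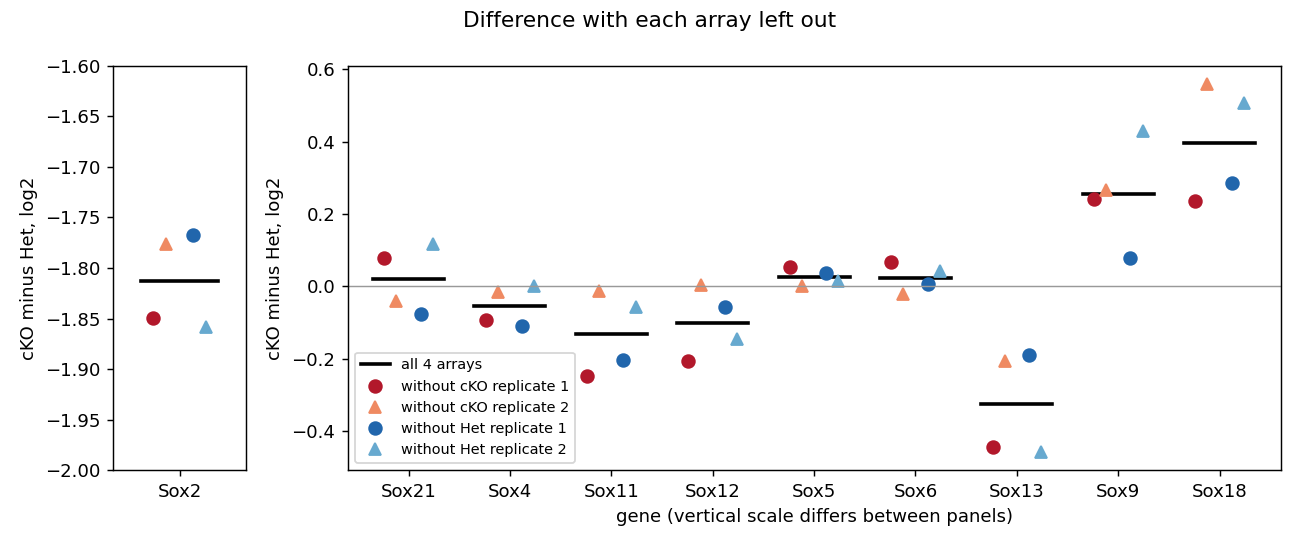
Difference between cKO and Het (log2) for each SOX gene with all 4 arrays (black bar) and with 1 array left out (coloured points, named by the array removed). Sox2 stayed between -1.86 and -1.77, Sox9 ranged from 0.079 to 0.43, and Sox13 and Sox18 kept their sign while their size varied.

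Markers of other cell types that use SOX genes varied between arrays as well, and their part in the SOX values was not tested. Of 7 keratinocyte and outer root sheath markers, 6 were lower in cKO, beside 47.7% of all genes. The groups did not overlap in 2 of these, beside 33.5% of all genes. The median of the 7 was -0.049 and -0.018 in cKO replicates 1 and 2 against -0.038 and 0.38 in Het replicates 1 and 2. Krt5, a basal keratin gene, reached 0.97 in Het replicate 2 but stood at -0.27 in Het replicate 1. Sox9 was lowest in Het replicate 1. Sox21, known from the hair shaft, was highest in Het replicate 2. It was lowest in Het replicate 1, where the hair shaft markers had a median of 0.020. Of 6 melanocyte markers 5 were lower in cKO, with medians of -0.076 and 0.058 in cKO against -0.11 and 0.19 in Het and no gene with separated groups. Of 5 measured Schwann and glial markers 3 were lower, with medians of -0.010 and -0.11 in cKO against 0.091 and 0.012 in Het. Sox10, which both lineages use, had 0.037 and -0.091 in cKO against -0.037 and 0.20 in Het. It was highest in Het replicate 2, as were the melanocyte markers by median. In cKO replicate 2, where that median was 0.058, Sox10 was lowest. The Schwann and glial median was also lowest there, at -0.11, but it was highest in Het replicate 1, where Sox10 was at -0.037.

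Of 7 endothelial markers, 3 were higher and 4 lower in cKO. Their medians were -0.0077 and 0.020 in cKO against -0.026 and 0.0077 in Het. Pecam1, an endothelial adhesion gene, differed by 0.069 ± 0.040 and Cdh5, the VE-cadherin gene, by -0.13 ± 0.17. Cdh5 had -0.012 and 0.012 in cKO against -0.088 and 0.35 in Het, so a single marker could spread widely within a group. Merkel cell markers, relevant to Sox2, were higher in 3 of 6 and lower in 3 of 6, with medians of 0.017 and 0.014 in cKO against -0.023 and 0.0026 in Het, and Atoh1, which specifies Merkel cells, differed by -0.027 ± 0.057. Hair shaft markers were lower in 4 of 5, with a median difference of -0.093, and hematopoietic markers were higher in 2 of 3, with a median difference of 0.049. Of 10 dermal papilla markers, 4 were higher and 6 lower with a median difference of -0.10. The groups did not overlap in 6 of them, 3 higher and 3 lower, beside 33.5% of all genes. Alpl, the papilla's alkaline phosphatase gene, differed by -0.43 ± 0.08, Vcan, a matrix proteoglycan gene, by -0.77 ± 0.26, and Corin, a surface protease gene, by 0.15 ± 0.32. The markers with non-overlapping groups that were higher in cKO, named after their values were seen, were Ndnf at 1.08 ± 0.50, Wif1 at 0.75 ± 0.22 and Lef1 at 0.51 ± 0.23. Beside Alpl and Vcan, the remaining lower marker with non-overlapping groups was Rspo3 at -0.66 ± 0.13, also named afterwards. No marker passed limma's test after adjustment over all genes. At an unadjusted p under 0.05 there were 4 papilla markers, 1 Schwann and glial marker (Fabp7) and 1 Merkel cell marker (Piezo2), the last pair named after their values were seen, beside 5.28% of all genes.

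**Figure D5:**
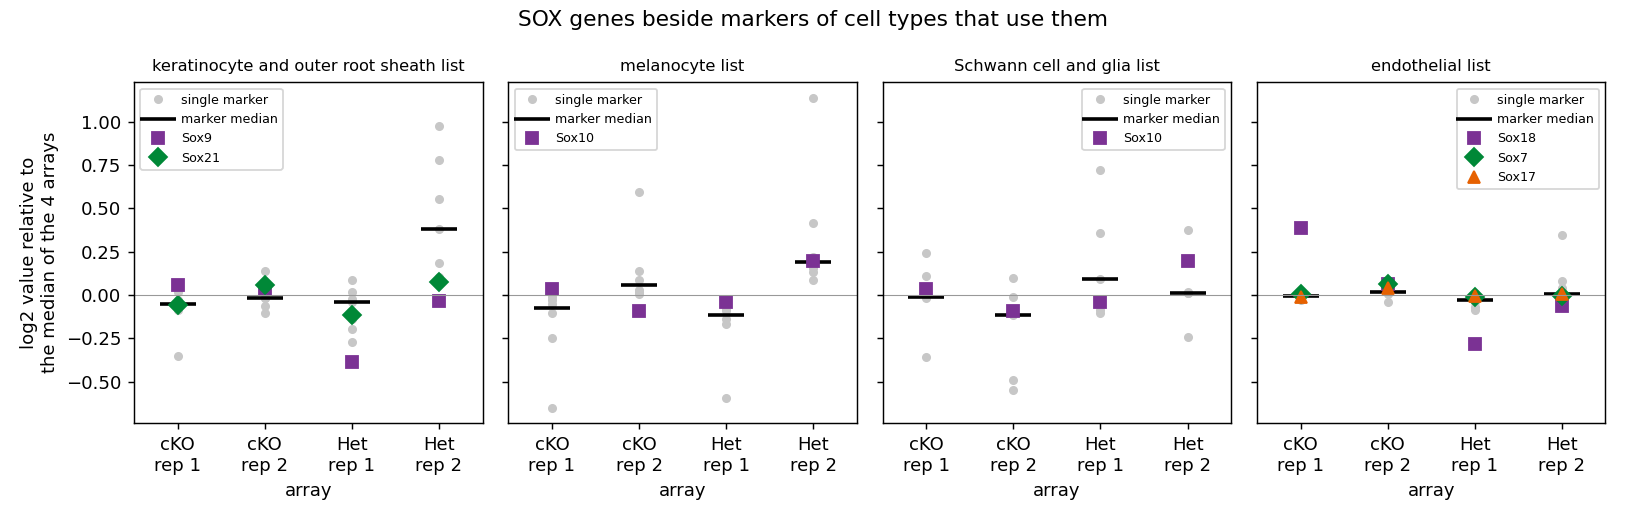
Values on each array (log2 relative to the median of the 4 arrays) of keratinocyte, melanocyte, Schwann and endothelial markers (grey points, black bar for the median) with the SOX genes known in those cells (coloured symbols). Keratinocyte markers reach a median of 0.38 in Het replicate 2, where Sox9 is at -0.033, and in the endothelial panel single markers reach 0.35 in Het replicate 2, where Sox18 is at -0.062.

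SOX factors act with partner proteins, and 14 of 15 listed partner genes were measured. Of these, 8 were higher and 6 lower in cKO, 7 had non-overlapping groups, and the median difference was 0.014. None passed limma's test after adjustment, and 1, Zeb2, had an unadjusted p under 0.05, beside 5.28% of all genes. Zeb2, a zinc-finger repressor gene, had the largest difference. It stood at 0.089 and 0.31 in cKO against -0.089 and -0.12 in Het, a difference of 0.30 ± 0.09. Hdac1, a histone deacetylase gene, differed by -0.28 ± 0.10, the corepressor gene Ctbp2 by -0.21 ± 0.18 with overlapping groups, and Pou5f1, the pluripotency partner of SOX2, by -0.067 ± 0.036. Of 24 genes listed as SOX targets in other tissues 22 were measured, with 10 higher, 12 lower, 7 with non-overlapping groups, a median of -0.0061 and none that passed limma's test after adjustment. Notch1 was the 1 target with an unadjusted p under 0.05, again beside 5.28% of all genes. This receptor gene, controlled by SOX2 in the mouse retina, had -0.12 and -0.11 in cKO against 0.26 and 0.11 in Het, a difference of -0.30 ± 0.07. Dct, a melanin synthesis gene activated by SOX10, differed by -0.19 ± 0.26, Erbb3, a neuregulin receptor gene of the glial lineage, by -0.12 ± 0.06, and Dcx, a gene of migrating neurons, by 0.073 ± 0.039. Non-overlapping groups thus made up 50.0% of the measured partners and 31.8% of the measured targets, beside 33.5% of all genes.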

How the data were processed

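RMA was the authors' processing tool, per the submitters' processing notes. The deposited values were taken as log2, the scale that RMA gives, since the table does not name its base. The median over the 4 arrays was 0 in every probe set (within 1e-06); the sources used here give neither the centring step nor the software version. RNA was amplified before biotin labelling, per the labels' protocols, which adds variation of its own.

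Of 28853 probe sets, 21789 named 1 gene, 1621 named several and 5443 had no listed gene in the platform annotation. Values were averaged per gene over probe sets naming that gene alone, with no filter, giving 19938 genes. The comparison of cKO with Het used limma 3.58.1 under R 4.3.3 (a linear model with empirical Bayes moderation, only the group as a term, two-sided, 2 residual degrees of freedom plus 1.52 from the prior) with Benjamini-Hochberg adjustment over all genes. The fit was tested on simulated data. Promoter windows were scanned for fixed letters. Python 3.11.15 and matplotlib 3.10.9 made the figures.

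Named were the SOX genes, the 4 largest differences of the partner and target lists, the 5 genes nearest to Sox2, and up to 3 markers per cell type, the first in each list. Genes named after their values were seen are marked as such in the text. The members and lists were chosen with earlier results of these data known. Alternatives were other gene summaries, scalings and priors, a filter on SD, the replicate number as a block, and each array left out.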

Additional observations from a re-analysis of the deposited data

How the results depend on the processing

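The Sox2 difference kept its sign under every alternative run, from -1.86 to -1.77 with 1 array left out and from -1.82 to -1.66 under the others, and limma's adjusted p lay between 0.261 and 1 except under the filter on SD. With only genes at or above the median SD over the 4 arrays (9969 genes), Sox2 was still at -1.81 and passed (adjusted p = 2.47e-13, limma), as 116 genes did, 22 higher and 94 lower. The SD over all 4 arrays contains the difference between the groups, so the filter keeps genes partly for that difference and these calls are not independent of it. For Sox2 this SD was 1.05, against 0.051 within cKO and 0.064 within Het. Under it the prior contributed 66.5 degrees of freedom in place of 1.52. It left 7 of the 10 SOX genes with a median difference of -0.10 and 5 of the other SOX genes with a median of -0.11, and called none of them but Sox2. Every other alternative called 0 genes. With the replicate block, Sox2 had an adjusted p of 0.514 (limma) and no call changed; the labels do not say that the numbers pair the samples, and deviations from the group means of like-numbered arrays correlated at 0.304. Of 192 values of single SOX genes under alternatives that kept all arrays, 190 kept their sign and their side of the threshold. Sox1 turned to 0.0018 under quantile normalization. Much of this was fixed beforehand, since each SOX gene had 1 probe set and the groups were equal in size. The differences themselves moved only under median centring, scaling and quantile normalization. The other alternatives left them as they were and changed only the test. With 1 array left out, 12 of 80 values changed sign, none of them called: the ranges were -0.077 to 0.12 for Sox21, -0.11 to 0.00032 for Sox4, -0.21 to 0.0025 for Sox12, -0.021 to 0.068 for Sox6, -0.063 to 0.063 for Sox1, -0.022 to 0.088 for Sox8, -0.22 to 0.010 for Sox10, -0.011 to 0.042 for Sox17 and -0.095 to 0.13 for Sry. The causes were not tested. Signal over background could not be read from centred values.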
